A study of Mus musculus with 18 samples.

Results

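The Schlafen genes Slfn1, Slfn2, Slfn3, Slfn5, Slfn8 and Slfn9 were followed through 18 RNA-seq libraries of CD4+ T cells. The 6 genes were chosen by name and were found by Ensembl identifier in all 18 count tables, among 37991 listed genes. All 6 passed the filter on low counts (a mean normalized count of 3 or more in 1 or more groups), as did 17240 genes in all, which were tested. A normalized count is a read count divided by the scaled depth of its library.

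The cells came from the spleens of Tg4-H2u mice, male and female animals aged 6 to 12 weeks, whose CD4+ T cells mostly carry 1 transgenic T cell receptor (TCR) for a peptide of myelin basic protein. Tolerized mice (T) had received 7 subcutaneous injections of the 4Y form of this peptide in rising amounts, 3 to 4 days apart, and control mice (N, predominantly naive) had received PBS on the same schedule. N0 and T0 cells were taken 2 h after a final injection of PBS, and NAg and TAg cells 2 h after a final injection of 80 μg of peptide. NPI and TPI cells were kept for 2 h in culture with the phorbol ester PMA at 20 ng/mL and the calcium ionophore A23187 at 2 μM (together PI), both of which act downstream of the receptor. Each of the 6 groups held 3 libraries, called biological replicates by the study. Whether a library came from 1 animal or from several is not given in the sources used here, and no group was cultured without PI. PI and culture therefore cannot be told apart. T0 and TAg differ from N0 and NAg in the whole course of injections, and not in 1 molecular step.

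Schlafen genes, named after the German word for sleeping, encode a family of proteins that share an AlbA-like nucleic acid binding fold. They were first described in mouse thymocytes, where forced expression of Slfn1 slowed growth. Slfn1 and Slfn2 encode short proteins with little more than this core, Slfn3 (with its neighbour Slfn4) encodes proteins of intermediate length, and Slfn5, Slfn8 and Slfn9 encode long proteins with a helicase-like C-terminal part. Mice with a mutated Slfn2 have T cells that fail to stay quiescent and die upon activation, and several members are induced by type I interferon.

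In the NCBIM37 annotation, the build to which the reads had been aligned, 9 Schlafen genes lay within 335.4 kb of chromosome 11. Slfn5 opened the cluster on the plus strand (chr11:82764851-82776443). Slfn9 (chr11:82793131-82805332) and Slfn8 (chr11:82815660-82834312) followed on the minus strand, and Slfn10-ps lay next to them. Slfn2 (chr11:82878614-82884180), Slfn1 (chr11:82930351-82936172), Slfn4 and Slfn3 (chr11:83004832-83028656) lay on the plus strand, and Slfn14 closed the cluster. The coding sequences held 337 codons in Slfn1, 378 in Slfn2, 517 in Slfn3, 884 in Slfn5, and 910 in both Slfn8 and Slfn9. Exons of Slfn5 overlapped those of an antisense transcript, 1700003F17Rik, over 77 bp, and no exon of another member overlapped another gene. The coding sequences of Slfn8 and Slfn9 were 92.7% identical over 2733 aligned bases, and those of Slfn3 and Slfn4 were 95.3% identical over 1524. That of Slfn10-ps was 92.9% identical to Slfn8 and 93.6% identical to Slfn9, each over 2550 aligned bases. Of all 50-base windows of their transcripts, 15.4% in Slfn8, 14.2% in Slfn9 and 14.3% in Slfn3 also occurred in another gene, against 4.27% in Slfn2, 1.46% in Slfn5 and 0.61% in Slfn1. Of the shared windows, 423 of 610 in Slfn8 and 483 of 638 in Slfn9 occurred in Slfn10-ps. Counts of Slfn3, Slfn8 and Slfn9 are the less certain ones for this reason, since the way shared reads were assigned is not given in the sources used here.

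**Figure D1:**
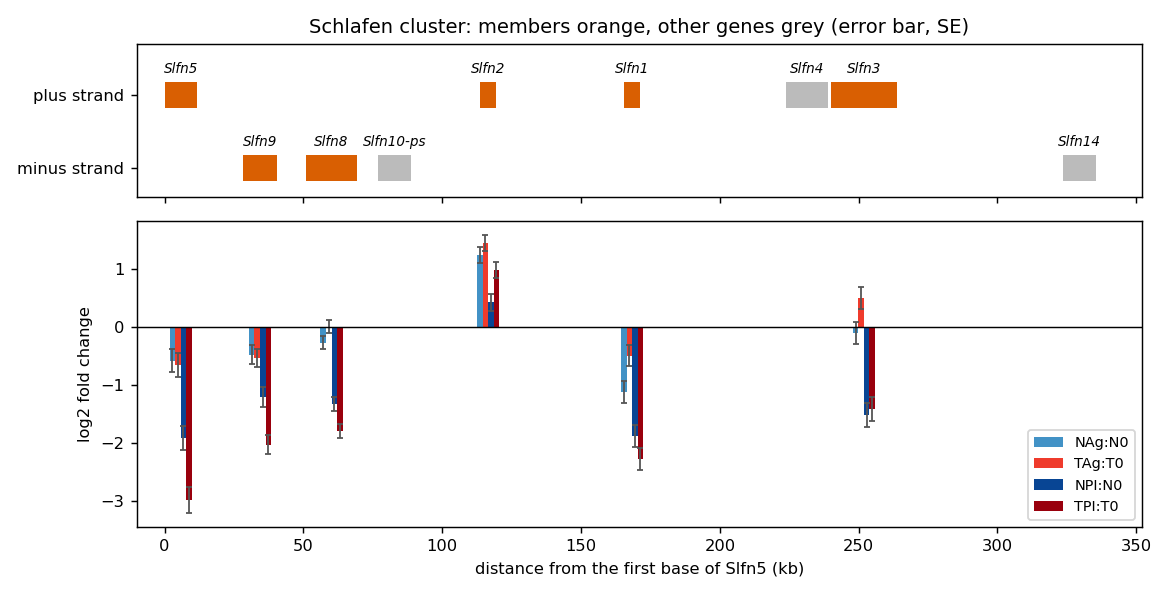
The upper panel maps the Schlafen genes of chromosome 11 by distance in kb from the first base of Slfn5, with members in orange and other genes in grey. The lower panel gives at each member's midpoint its log2 fold change (SE as error bar) after Ag or PI in naive and tolerized cells, and the bars of Slfn2 point up while those of its neighbour Slfn1, on the same strand, point down.

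The promoters of the members are shown because neighbouring genes of this cluster moved in opposite directions. The windows were taken from RefSeq (build GRCm38.p6, so these coordinates cannot be set against the NCBIM37 ones above), run 5′ to 3′ from 250 bases before to 50 bases after the start of transcription, and were found for all 6 members. Each was searched on both strands for a consensus core of the interferon-stimulated response element (ISRE, the letters GAAA repeated after any 2 bases), an AP-1 site (TGANTCA), a gamma-activated site (TTCNNNGAA), an NFAT core (TGGAAA) and an ETS site (CAGGAAGT). The letters of the ETS site were chosen after the sequences had been read. No match of one motif overlapped that of another in the sequences printed. In the windows of Slfn2 and Slfn1 the capitals mark the ETS match, read on the minus strand as ACTTCCTG.
Slfn2, chr11:83064862-83065161, plus strand: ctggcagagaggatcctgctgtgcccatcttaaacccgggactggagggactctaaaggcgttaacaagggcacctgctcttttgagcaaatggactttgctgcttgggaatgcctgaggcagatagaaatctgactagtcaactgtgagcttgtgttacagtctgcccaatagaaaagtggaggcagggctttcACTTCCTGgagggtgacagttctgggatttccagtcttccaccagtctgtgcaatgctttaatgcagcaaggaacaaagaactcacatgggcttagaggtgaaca
Slfn1, chr11:83116570-83116869, plus strand: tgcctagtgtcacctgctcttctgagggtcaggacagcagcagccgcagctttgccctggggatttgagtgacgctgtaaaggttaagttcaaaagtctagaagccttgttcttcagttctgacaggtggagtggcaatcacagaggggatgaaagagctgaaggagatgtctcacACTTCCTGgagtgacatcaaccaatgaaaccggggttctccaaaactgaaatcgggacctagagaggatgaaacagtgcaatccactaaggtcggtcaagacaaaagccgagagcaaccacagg
In the windows of Slfn5 and Slfn8 the capitals mark the ISRE core, which in Slfn8 stood on the opposite strand as TTTCGTTTTC.
Slfn5, chr11:82951852-82952151, plus strand: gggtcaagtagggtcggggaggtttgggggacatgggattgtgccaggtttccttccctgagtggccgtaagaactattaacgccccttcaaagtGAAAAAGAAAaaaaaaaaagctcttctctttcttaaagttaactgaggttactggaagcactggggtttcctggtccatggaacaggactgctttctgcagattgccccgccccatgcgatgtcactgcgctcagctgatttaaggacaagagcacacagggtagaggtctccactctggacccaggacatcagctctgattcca
Slfn8, chr11:83020761-83021060, minus strand: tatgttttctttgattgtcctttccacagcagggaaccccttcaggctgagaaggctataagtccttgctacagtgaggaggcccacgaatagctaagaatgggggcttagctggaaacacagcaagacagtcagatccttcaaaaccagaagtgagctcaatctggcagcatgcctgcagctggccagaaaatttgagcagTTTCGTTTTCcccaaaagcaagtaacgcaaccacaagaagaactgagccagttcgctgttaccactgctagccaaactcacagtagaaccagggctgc

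The ETS letters, chosen from these windows, were in Slfn1, Slfn2 and Slfn3 and in 3.33% of the 32817 promoters in the table, and nothing is read from this share. The match began at position -74 from the start in Slfn1, at -55 in Slfn2, and at -60 and -42 in Slfn3. Slfn5, Slfn8 and Slfn9, with the long proteins, held the ISRE core, which 3.43% of all promoters held, at -155, -48 and -45. The NFAT letters, present in 21.4% of all promoters, were found in Slfn2, Slfn8 and Slfn9, whereas the AP-1 letters (7.81% of all promoters) and the gamma-activated site (8.29%) were in none of the 6 windows. The windows of Slfn8 and Slfn9 were 84.9% identical over 292 aligned bases. These matches describe the letters of the windows, and binding was not measured here.

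Total counts ran from 10758571 in N0 to 24119489 in TPI, and the PI libraries were the deepest. The CD4 T cell markers were present in every library, with a summed level of 1235 to 4403 CPM (reads of a gene scaled to the depth of the library) over 8 genes. These 8 genes summed to 2463 to 2574 CPM in N0 and 1235 to 1321 CPM in NAg. The 13 neutrophil markers summed to 7.19 to 15.5 CPM in N0, 140 to 251 CPM in T0, 185 to 338 CPM in TAg and 32.8 to 56.6 CPM in TPI. The 11 erythroid markers summed to 7.95 to 23.4 CPM in N0 and 32.7 to 213 CPM in T0. The 13 monocyte and macrophage markers summed to 58.9 to 88.4 CPM in N0 and 29.5 to 39.9 CPM in NPI. Of these 13, 9 (69.2%) were lower in NPI than in N0, beside 32.7% of all tested genes. The 9 B cell markers summed to 388 to 696 CPM in T0 and 153 to 249 CPM in TAg. Of these 9, 3 (33.3%) were lower in TAg than in T0, near the 29.8% of all tested genes. The median log2 fold change over the 9 was -1.08, beside -0.053 over all tested genes. The part of B cells in the values of the members was not tested. Reads of Y-linked genes exceeded 1000 in all NPI and TPI libraries, in T0 replicates 1 and 2 and in TAg replicate 3, and were at 18 or fewer in the others. The sex of the animals therefore cannot be told apart from PI in naive cells. Only T0 and TAg held both kinds of library, so a covariate for Y-linked reads was estimated within these groups alone. With bulk RNA, fewer cells expressing a gene and less RNA per cell cannot be told apart.

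Slfn2 was the most abundant member per kb of exon in every group, and it rose after Ag in naive and in tolerized cells. Its normalized counts were 2665, 2406 and 2851 in the N0 libraries, 6672, 5966 and 6039 in NAg, and 3363, 3722 and 3501 in NPI. In tolerized cells they were 2363, 2424 and 3820 in T0, 7623, 7696 and 8072 in TAg, and 6269, 5307 and 5294 in TPI. All stimulated libraries of naive cells lay above all N0 libraries, and all stimulated libraries of tolerized cells lay above all T0 libraries. T0 replicate 3 stood apart from the other T0 libraries, and it was the T0 library without Y-linked reads.

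Slfn1, the member that gave the family its name, took the opposite course. Its normalized counts were 2353, 2257 and 2699 in N0, 1205, 894 and 1261 in NAg, and 612, 682 and 703 in NPI. The 3 naive groups did not overlap. In tolerized cells the values were 1497, 1464 and 2532 in T0, 1214, 1366 and 1314 in TAg, and 406, 391 and 341 in TPI. T0 replicate 3 was again the high library, and lay within the range of N0.

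Slfn3, of intermediate length, was much less abundant. It had 101, 87.7 and 144 normalized counts in N0, 117, 96.3 and 95.7 in NAg, and 31.2, 48.4 and 37.3 in NPI. The tolerized libraries had 85.8, 91.0 and 101 in T0, 143, 119 and 128 in TAg, and 43.6, 30.7 and 29.0 in TPI. All 6 PI libraries lay below the 12 others.

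Among the long members, Slfn5, a nuclear protein, had 1995, 2023 and 2529 normalized counts in N0, 1912, 1001 and 1467 in NAg, and 503, 626 and 608 in NPI. Its values were 1920, 2037 and 2000 in T0, 1149, 1024 and 1612 in TAg, and 263, 255 and 238 in TPI. The NAg libraries spread widest, whereas the TPI libraries were tightly grouped at the lowest level of all.

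Slfn8 had 2424, 2335 and 2806 normalized counts in N0, 2433, 1656 and 2179 in NAg, and 903, 1053 and 1066 in NPI. It had 2349, 2396 and 2489 in T0, 2488, 2234 and 2514 in TAg, and 800, 656 and 637 in TPI. The range of T0 lay within that of TAg, and the 6 PI libraries again lay below all others. Slfn9 had 157, 132 and 162 normalized counts in N0, 138, 91.6 and 93.5 in NAg, and 64.5, 75.9 and 56.0 in NPI. Its T0 libraries, at 195, 259 and 264, lay above all 15 others. The TAg libraries had 156, 164 and 175 and the TPI libraries 59.0, 56.0 and 60.3.

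**Figure D2:**
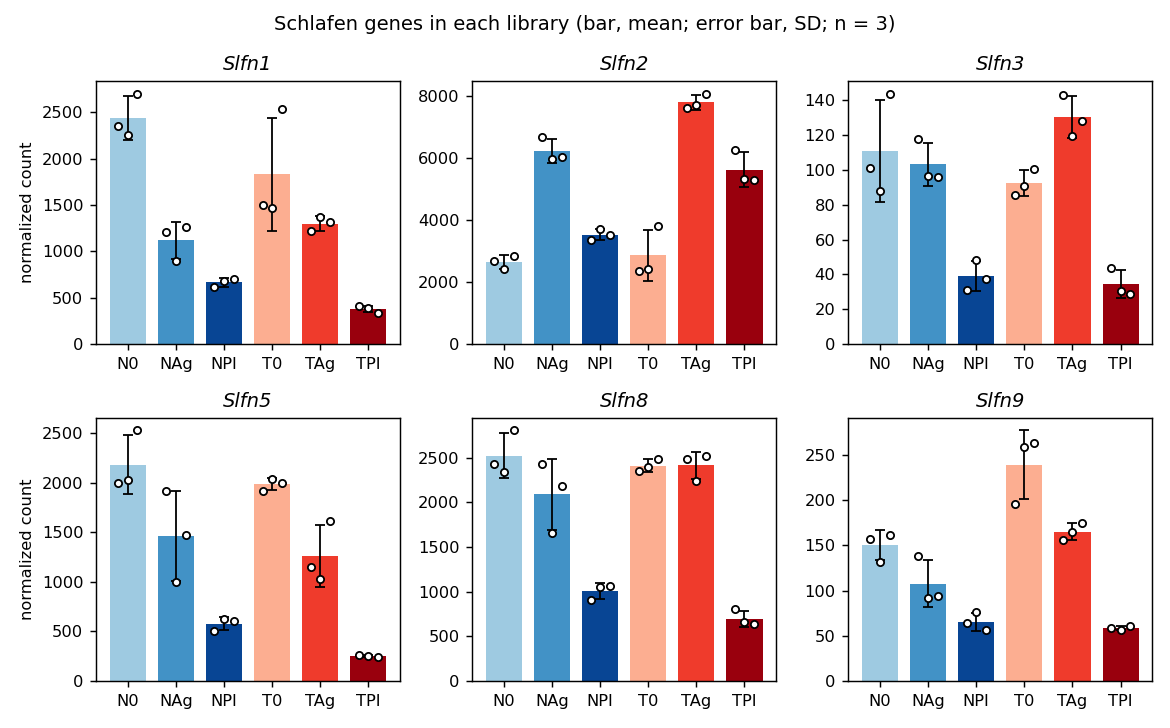
Each panel gives the normalized counts of 1 Schlafen gene in the 6 groups, with a circle for each library, a bar for the mean and an error bar for the SD (n = 3), on a linear axis that starts at 0 and differs between panels. Slfn2 is highest in TAg and NAg, whereas the other 5 members are lowest in NPI and TPI.

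Per kb of exon, the resting naive cells held 1587 ± 134 normalized counts of Slfn2 and 1307 ± 125 of Slfn1 (SD, n = 3). Slfn8 followed with 616 ± 61.2 and Slfn5 with 493 ± 67.8. Slfn3, at 61.0 ± 16.1, and Slfn9, at 31.8 ± 3.45, were more than an order of magnitude below Slfn1. At rest, most Schlafen RNA therefore came from the genes with short proteins.

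To see how Ag acted in naive cells, NAg was compared with N0. Slfn2 rose, with a log2 fold change of 1.24 (SE 0.14, edgeR adjusted p = 6.18e-07), whereas Slfn1 fell by 1.12 on the log2 scale (SE 0.18, adjusted p = 8.87e-05). Slfn5 fell by 0.58 (SE 0.20, adjusted p = 0.022), Slfn9 by 0.48 (SE 0.16, adjusted p = 0.0116) and Slfn8 by 0.27 (SE 0.12, adjusted p = 0.046). Slfn3 was at -0.11 (SE 0.19, adjusted p = 0.647). In all, 1 member rose and 4 fell, while 32.1% of all tested genes rose and 33.4% fell. The NAg and N0 libraries of 3 members, Slfn1, Slfn2 and Slfn5, did not overlap, as was so for 68.1% of all tested genes.

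The falls of the long members after Ag came with a wide spread in NAg. NAg replicate 1 was the highest NAg library for each of them. It also held 220 CPM of monocyte and macrophage markers, against 72.3 and 55.0 CPM in NAg replicates 2 and 3. The part of these cells was not tested. The call of Slfn8 was lost without N0 replicate 3 (-0.24, adjusted p = 0.1), without NAg replicate 2 (-0.13, adjusted p = 0.271) and without NAg replicate 3 (-0.30, adjusted p = 0.0682). Slfn5 lost it without the same libraries (-0.51, -0.37 and -0.58, adjusted p = 0.0614, 0.0702 and 0.0576), and Slfn9 without NAg replicate 2 or 3 (-0.38 and -0.38, adjusted p = 0.0679 and 0.0733). Slfn8 was also not called in 5 of 8 alternative fits, DESeq2 among them (-0.22, adjusted p = 0.0937). Slfn1 and Slfn2 kept their calls without any 1 library.

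In tolerized cells, TAg was compared with T0. Slfn2 rose again, with a log2 fold change of 1.44 (SE 0.14, adjusted p = 1.17e-07). Slfn3 rose by 0.49 (SE 0.19, adjusted p = 0.0267), which was a fold of 1.41. Slfn4, which shares sequence with Slfn3, rose by 1.29 (SE 0.40, adjusted p = 0.0124), and the part of shared reads was not tested. Slfn5 fell by 0.65 (SE 0.20, adjusted p = 0.0131), Slfn9 by 0.53 (SE 0.15, adjusted p = 0.00408) and Slfn1 by 0.49 (SE 0.18, adjusted p = 0.0321). Slfn8 was at 0.00076 (SE 0.11, adjusted p = 0.998), and its sign was negative with library totals as the scale, with the replicate block, with only these groups in the fit, and without any 1 of 5 libraries. Of the members, 2 rose and 3 fell, while 29.9% of all tested genes rose and 29.8% fell. The libraries of 5 members, all but Slfn8, did not overlap (64.5% of all tested genes).

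The fall of Slfn1 in TAg rested on T0 replicate 3, without which it was -0.22 (adjusted p = 0.107). It also lost its call without TAg replicate 1, 2 or 3 (-0.45, -0.53 and -0.50, adjusted p = 0.0906, 0.0522 and 0.0681). The rise of Slfn3 was not called without T0 replicate 1 or 2 or TAg replicate 1 (0.41, 0.45 and 0.42, adjusted p = 0.116, 0.0835 and 0.108) or with library totals as the scale (0.16, adjusted p = 0.461), and the fall of Slfn5 was not called without TAg replicate 1 or 2 (-0.59 and -0.52, adjusted p = 0.0522 and 0.0587).

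The difference between both Ag responses was tested as an interaction. By edgeR, 0 of 6 members were called, while 14.6% of all tested genes had a higher and 7.09% a lower response in tolerized cells, and at an unadjusted p under 0.05 there were 2, Slfn1 and Slfn3. DESeq2 called 1, Slfn1. The response of Slfn1 was higher in tolerized cells by 0.63 on the log2 scale (SE 0.26, adjusted p = 0.112) and that of Slfn3 by 0.60 (SE 0.27, adjusted p = 0.121). The responses of Slfn2 differed by 0.21 (SE 0.20, adjusted p = 0.525). Slfn3 was called in 1 of 12 fits with a library left out (adjusted p = 0.0488). The values of Slfn1 and Slfn2 turned on T0 replicate 3. Without it the difference was 0.95 for Slfn1 (adjusted p = 0.000131) and 0.49 for Slfn2 (adjusted p = 0.0026), both called. The T0 libraries left then all held more than 1000 Y-linked reads, and no N0 or NAg library did, so sex was not balanced in that fit.

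After direct stimulation with PI, 5 of the 6 members fell in naive cells. Slfn5 fell by 1.91 (SE 0.21, adjusted p = 2.48e-06) and Slfn1 by 1.87 on the log2 scale (SE 0.19, adjusted p = 8.09e-07). Slfn3 fell by 1.51 (SE 0.21, adjusted p = 8.34e-07), Slfn8 by 1.32 (SE 0.12, adjusted p = 8.63e-09) and Slfn9 by 1.21 (SE 0.17, adjusted p = 1.13e-06). Slfn2 rose by 0.42 (SE 0.14, adjusted p = 0.0161), a direction that turned to -0.16 (adjusted p = 0.237) when libraries were scaled by their totals, which shifted the median of all genes by -0.59. All 6 members were called, while 28.6% of all tested genes rose and 32.7% fell, and for all 6 the libraries of NPI and N0 did not overlap (66.4% of all tested genes). The rise of Slfn2 was not called without N0 replicate 1 or 2 or NPI replicate 2 (0.38, 0.31 and 0.38, adjusted p = 0.064, 0.11 and 0.0549).

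In tolerized cells these 5 members also fell after PI. Slfn5 fell by 2.98 (SE 0.22, adjusted p = 3.1e-08), a fold of 7.89, which was the largest change of a member between any groups compared. Slfn1 fell by 2.27 (SE 0.19, adjusted p = 1.01e-07) and Slfn9 fell by 2.03 (SE 0.16, adjusted p = 8.73e-11). Slfn8 fell by 1.79 (SE 0.12, adjusted p = 8.42e-11) and Slfn3 fell by 1.42 (SE 0.21, adjusted p = 1.74e-06). Slfn2 rose by 0.97 (SE 0.14, adjusted p = 1.06e-05), a fold of 1.96. With library totals as the scale, which shifted the median of all genes by -0.82, its value was 0.18 (adjusted p = 0.164). All 6 were called, beside 32% of all tested genes that rose and 36.3% that fell, and none overlapped between the groups (72.5% of all tested genes did not). With covariates that score the erythroid markers and the myeloid ones, here called marker scores, Slfn3 was at -0.86 (adjusted p = 0.191). These markers moved with the groups, so a call lost in this fit does not tell the part of other cells.

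The responses to PI differed between the cell states for 2 members, Slfn5 and Slfn9, which both fell further in tolerized cells. The difference was -1.07 for Slfn5 (SE 0.30, adjusted p = 0.0235) and -0.82 for Slfn9 (SE 0.24, adjusted p = 0.0146), and 7.52% of all tested genes were called in this direction and 12.7% in the other. Slfn2 had a difference of 0.55 (SE 0.20, adjusted p = 0.0595), Slfn8 of -0.47 (SE 0.17, adjusted p = 0.0557) and Slfn1 of -0.40 (SE 0.27, adjusted p = 0.348). With DESeq2, Slfn2 (0.56, adjusted p = 0.0109) and Slfn8 (-0.46, adjusted p = 0.0273) were called as well. With the marker scores as covariates neither Slfn5 (-0.62, adjusted p = 0.106) nor Slfn9 (-0.45, adjusted p = 0.263) was called, and with a covariate for Y-linked reads Slfn5 was at -0.89 (adjusted p = 0.0835). Slfn5 also lost its call without N0 replicate 1 or 2, NPI replicate 2 or 3, T0 replicate 2 or TPI replicate 3 (-1.03 to -0.99, adjusted p from 0.0503 to 0.0573), and Slfn9 without NPI replicate 2 (-0.71, adjusted p = 0.0503) or T0 replicate 2 (-0.74, adjusted p = 0.051). Without T0 replicate 3, Slfn2 was called at 0.83 (adjusted p = 1.09e-05). In that fit all T0 and TPI libraries held more than 1000 Y-linked reads, whereas N0 and NPI differed in them.

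**Figure D3:**
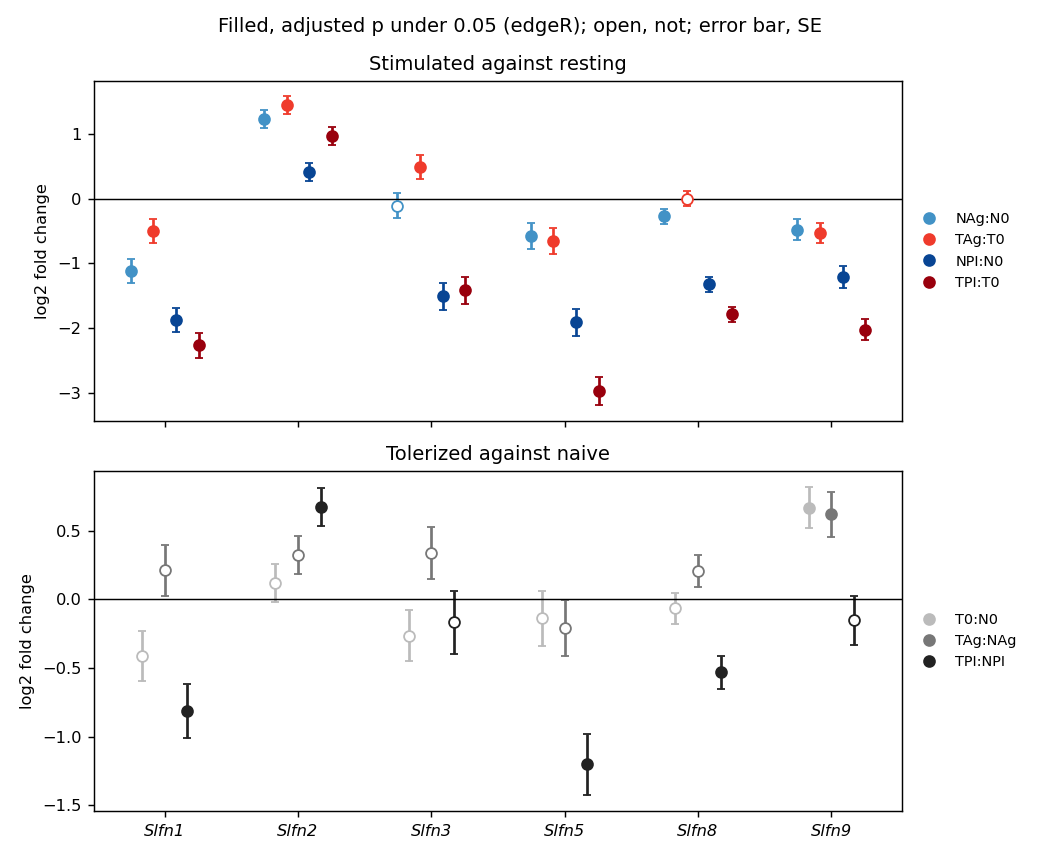
The log2 fold changes of the 6 Schlafen genes are plotted with their SE, stimulated against resting cells in the upper panel and tolerized against naive cells in the lower one. Filled symbols have an edgeR adjusted p under 0.05, and Slfn2 is the member above 0 in all 4 stimulated comparisons.

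Resting tolerized and naive cells differed in 1 member, Slfn9, which was higher in T0 by 0.67 on the log2 scale (SE 0.15, adjusted p = 0.00296), a fold of 1.59. Slfn1 was at -0.41 (SE 0.18, adjusted p = 0.132), Slfn3 at -0.26 (SE 0.19, adjusted p = 0.361), Slfn5 at -0.14 (SE 0.20, adjusted p = 0.697), Slfn2 at 0.12 (SE 0.14, adjusted p = 0.609) and Slfn8 at -0.065 (SE 0.11, adjusted p = 0.753). Of all tested genes, 8.42% were higher and 12% lower in T0, and Slfn9 was the member without overlap between the groups (35% of all tested genes). The value of Slfn1 turned on T0 replicate 3, and without this library Slfn1 was lower in T0 by a log2 value of -0.73 (adjusted p = 0.000206). The T0 libraries left in that fit both held more than 1000 Y-linked reads, and no N0 library did. Sex and tolerization therefore cannot be told apart in it. The neutrophil markers moved with the comparison as well, since 12 of 13 were higher in T0 than in N0, and with the marker scores as covariates Slfn9 was at 0.032 (adjusted p = 0.989). Since these markers moved with the groups, that fit cannot tell other cells from the groups. The part of other cells in the difference of Slfn9 was not tested further.

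After Ag, Slfn9 was again the member that differed, being higher in TAg than in NAg by 0.62 (SE 0.16, adjusted p = 0.00374). Slfn10-ps, which shares sequence with Slfn9, was higher in TAg by 1.61 (SE 0.12, adjusted p = 6.8e-10). The part of shared reads in the value of Slfn9 was not tested. Of all tested genes, 20.9% were higher and 18.5% lower in TAg, and the libraries of 3 members, Slfn2, Slfn3 and Slfn9, did not overlap (47.7% of all tested genes). Slfn2, at 0.32 (SE 0.14, adjusted p = 0.0748), was not called here. It was called at 0.34 with only these groups in the fit (adjusted p = 0.0021), at 0.50 with library totals as the scale (adjusted p = 0.00199), and at 0.43 with the covariate for Y-linked reads (adjusted p = 0.0115). All 13 neutrophil markers were higher in TAg than in NAg, and 9 of the 13 monocyte and macrophage markers were lower (median log2 fold change over the 13, -2.05). With the marker scores as covariates, Slfn9 was at 0.22 (adjusted p = 0.513) and Slfn5 was lower at -0.75 (adjusted p = 0.0171).

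After PI, 4 members differed. Slfn2 was higher in TPI than in NPI by 0.67 (SE 0.14, adjusted p = 0.00103), whereas Slfn5 was lower 2.30-fold (SE 0.23 on the log2 scale, adjusted p = 0.000786), Slfn1 was lower by a log2 value of -0.81 (SE 0.20, adjusted p = 0.00468) and Slfn8 of -0.53 (SE 0.12, adjusted p = 0.00159). Of all tested genes, 18.2% were higher and 19.7% lower in TPI, and the libraries of the 4 members did not overlap (50.5% of all tested genes). Slfn3, at -0.17 (SE 0.23, adjusted p = 0.616), and Slfn9, at -0.15 (SE 0.18, adjusted p = 0.556), were not called. These 4 calls held in each of the 8 alternative fits and without any 1 of the 6 libraries, and all NPI and TPI libraries held Y-linked reads.

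The stimuli were then set against each other. All 6 members were lower after PI than after Ag, in naive and in tolerized cells, while 31% of all tested genes were lower and 33.5% higher in NPI than in NAg, and 32.3% lower and 31.5% higher in TPI than in TAg. No member overlapped between these groups (68.5% of all tested genes in naive and 68.7% in tolerized cells did not). In naive cells the log2 difference ran from -1.41 for Slfn3 (SE 0.21, adjusted p = 2.37e-06) to -0.72 for Slfn9 (SE 0.17, adjusted p = 0.000845). In tolerized cells it ran from -2.33 for Slfn5 (SE 0.22, adjusted p = 4.69e-07) to -0.47 for Slfn2 (SE 0.14, adjusted p = 0.00692). Slfn2 was lower by a log2 value of -0.82 in naive cells (SE 0.14, adjusted p = 6.66e-05). With the marker scores as covariates, 1 member, Slfn8, was called in naive cells and 3 members, Slfn3, Slfn5 and Slfn8, in tolerized cells, and Slfn9 turned to 0.045 in naive cells (adjusted p = 0.93). With the covariate for Y-linked reads, Slfn1 was not called in naive cells (-0.37, adjusted p = 0.194), nor Slfn2 in tolerized cells (-0.29, adjusted p = 0.0843). All NPI libraries and no NAg library held more than 1000 Y-linked reads, so the naive groups gave no estimate of this covariate. The neutrophil markers summed to 11.8 to 32.5 CPM in NAg and 6.15 to 14.5 CPM in NPI. In tolerized cells they summed to 185 to 338 CPM in TAg and 32.8 to 56.6 CPM in TPI. The monocyte and macrophage markers summed to 55.0 to 220 CPM in NAg and 29.5 to 39.9 CPM in NPI. In TAg these summed to 81.2 to 117 CPM and in TPI to 56.6 to 63.3 CPM. The part of these cells in the differences between the stimuli was not tested.

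The study's own limits ask in addition for a fold of 2 or more and a mean normalized count above 50 in the higher group. By these limits 2 members, Slfn1 and Slfn2, changed in NAg:N0 (30.3% of all tested genes), 1, Slfn2, in TAg:T0 (23.4%), 5, all but Slfn2, in NPI:N0 (20.3%) and the same 5 in TPI:T0 (27.1%). The limits left 0 members in T0:N0 (3.25%) and in TAg:NAg (5.66%), 1, Slfn5, in TPI:NPI (5.6%), 3 in NPI:NAg (27.5%), 5 in TPI:TAg (25.5%), 0 in the Ag interaction (5.27%) and 1, Slfn5, in the PI interaction (3.21%).

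The opposite courses of Slfn2 and Slfn1 changed the makeup of Schlafen RNA, which can be read within each library and so does not depend on the scaling between libraries. Slfn2 held 38.8% ± 1.17 (SD, n = 3) of the summed normalized count per kb of the 6 members in N0, 71.3% ± 3.39 in NAg and 73.4% ± 1.09 in NPI. In tolerized cells it held 44.4% ± 2.72 in T0, 73.6% ± 0.574 in TAg and 88.0% ± 0.428 in TPI. The ratio of Slfn2 to Slfn1 per kb was 1.22 ± 0.0466 in N0 and 1.77 ± 0.0829 in T0, and the libraries of both groups did not overlap. The ratio in T0 replicate 3 lay with those of the other T0 libraries, so that this library stood apart in the levels of both genes but not in their ratio. The ratio was 6.35 ± 1.06 in NAg, 5.95 ± 0.322 in NPI and 6.74 ± 0.381 in TAg. The NAg libraries overlapped those of NPI and of TAg, whereas NPI lay below TAg without overlap. The ratio reached 16.6 ± 1.22 in TPI.

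**Figure D4:**
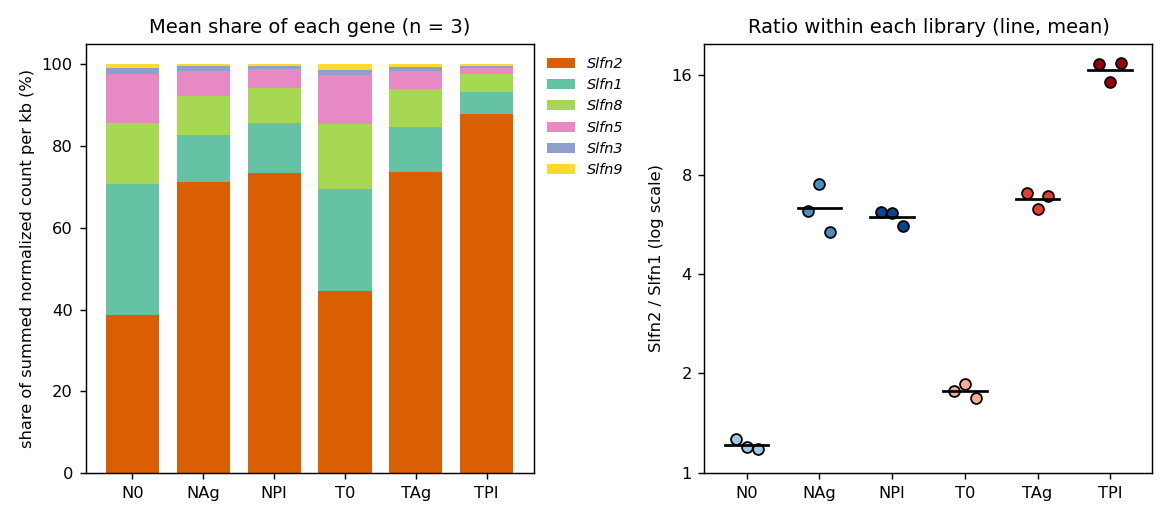
The left panel stacks the mean share of each Schlafen gene in the summed normalized count per kb of the 6 members, in percent, for each group (n = 3). The right panel gives the ratio of Slfn2 to Slfn1 per kb in each library on a log scale, with a line for the mean, which rises from 1.22 in N0 to 16.6 in TPI.

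Among the long members, the ratio of Slfn5 to Slfn8 per kb was 0.798 ± 0.0361 in N0, 0.636 ± 0.0846 in NAg and 0.530 ± 0.0171 in NPI. It was 0.761 ± 0.0221 in T0, 0.481 ± 0.0965 in TAg and 0.336 ± 0.0288 in TPI. The ratio in TPI lay below that in every other library. The ratio of Slfn8 to Slfn9, paralogs with partly shared sequence, was 19.4 ± 1.46 in N0 and 11.8 ± 1.78 in T0.

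Ordered by their mean levels, neighbouring groups often did not differ. Slfn1 went from N0 through T0, TAg, NAg and NPI to TPI, and N0 did not differ from T0 (adjusted p = 0.132) nor TAg from NAg (adjusted p = 0.407). Slfn2 went from TAg through NAg, TPI, NPI and T0 to N0, and of these neighbours only TPI and NPI differed (adjusted p = 0.00103). For Slfn3, Slfn5 and Slfn8 the PI groups came last, after a step from the lowest other group of 1.25 (adjusted p = 1.28e-05), 1.13 (adjusted p = 0.000337) and 1.05 (adjusted p = 1.64e-07) on the log2 scale. Slfn9 was the member with T0 in the first place, above TAg by 0.53 (adjusted p = 0.00408).

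Over the 18 libraries, the log2 normalized counts of Slfn1, Slfn3, Slfn5, Slfn8 and Slfn9 followed each other, with Pearson correlations of 0.82 to 0.97. Those of Slfn2 with the other 5 lay between -0.37 and 0.11. These values describe libraries that share 6 groups and their depth. Among 10353 other genes, the genes whose pattern was most like that of Slfn2 included Plagl2 (r = 0.969) and Malt1 (0.964), the latter of which encodes the paracaspase that links the TCR to NF-κB. That of Slfn1 was most like Gm14446 (0.983), Zbtb44 (0.982) and Snx6 (0.981). Slfn5 was closest to D14Ertd668e (0.978), Gm4955 (0.976) and Hsh2d (0.976), and Slfn8 to Zfp192 (0.984), Xaf1 (0.983) and Trim12c (0.981). Xaf1 is known as an interferon-induced gene. Slfn9 was closest to Ly6e (0.971), 8430410K20Rik (0.959) and Usp46 (0.957), and Slfn3 to Rars2 (0.970), Armc1 (0.969) and Fam18b (0.968).

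The Schlafen genes outside the 6 members behaved unevenly. Slfn10-ps, which shares sequence with Slfn8 and Slfn9, had 372 ± 60.4 normalized counts in N0, 223 ± 23.7 in NAg, 387 ± 41.3 in T0 and 681 ± 80.6 in TAg (SD, n = 3). It fell after Ag in naive cells by 0.74 (SE 0.13, adjusted p = 1.47e-05) and rose in tolerized cells by 0.81 (SE 0.12, adjusted p = 1.63e-06), and the difference between both responses was 1.55 (SE 0.17, adjusted p = 6.4e-07). Slfn4, known from myeloid cells, was low, with 44.6, 15.7 and 23.8 in the N0 libraries, 88.4 ± 16.9 in T0 and 215 ± 143 in TAg, and was higher in T0 than in N0 by 1.65 (SE 0.48, adjusted p = 0.0238), as were the neutrophil markers. Slfn14 and Slfnl1 did not exceed 16.7 normalized counts in any library.

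Other genes that keep T cells quiescent did not move as one with Slfn1. Of a list of 22, which include transcription factors and receptors of resting T cells, 5 (22.7%) rose and 14 (63.6%) fell in NAg, beside 32.1% and 33.4% of all tested genes, with a median log2 fold change of -1.14 beside 0 over all tested genes. In NPI 12 (54.5%) rose and 5 (22.7%) fell, beside 28.6% and 32.7% of all tested genes, with a median of 0.26 beside -0.059. The largest falls in NAg were those of S1pr1 (-4.10, SE 0.12, adjusted p = 2.09e-16), the receptor that guides T cells out of lymphoid tissue, and Cdkn1b (-3.91, SE 0.11, adjusted p = 2.76e-19), which encodes the cell cycle inhibitor p27. The largest rises were those of Foxj1 (3.08, SE 0.37, adjusted p = 8.98e-09) and Peli1 (0.94, SE 0.073, adjusted p = 3.19e-11). Foxj1 was low, with 6.07 ± 2.70 normalized counts in N0 and 52.1 ± 15.8 in NAg (SD, n = 3). After PI the antiproliferative gene Btg2 rose in naive cells by 3.07 (SE 0.13, adjusted p = 3.3e-12) and Foxj1 by 3.21 (SE 0.36, adjusted p = 5.22e-09), whereas Il7r (-1.13, SE 0.13), which marks naive and memory cells, fell. In T0, 2 of the 22 (9.09%) were higher than in N0, near the 8.42% of all tested genes, Il7r (0.51, SE 0.13, adjusted p = 0.0083) and Elf4 (0.33, SE 0.068, adjusted p = 0.00132), and 5 (22.7%) were lower, beside 12% of all tested genes, led by Lef1 (-0.93, SE 0.080, adjusted p = 5.67e-08) and Bach2 (-0.93, SE 0.11, adjusted p = 4.08e-06). Slfn1 fell after PI, whereas 12 of the 22 rose in naive cells and 11 in tolerized cells (28.6% and 32% of all tested genes).

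Of 27 genes of the type I interferon response, 9 (33.3%) rose and 5 (18.5%) fell in NAg, beside 32.1% of all tested genes that rose and 33.4% that fell, with a median of 0.45 beside 0. They were led by Isg15 (1.97, SE 0.22, adjusted p = 1.49e-07) and Parp14 (1.55, SE 0.088, adjusted p = 9.25e-14) on one side and Ddx58 (-1.44, SE 0.10, adjusted p = 1.23e-11) and Ifit2 (-1.39, SE 0.17, adjusted p = 9.7e-07) on the other. In NPI 14 (51.9%) fell, beside 32.7% of all tested genes, and 2 rose, Isg15 (1.41, SE 0.23, adjusted p = 1.85e-05) and Irf9 (0.23, SE 0.089, adjusted p = 0.0285), with a median of -0.66, and Ifit2 (-1.99, SE 0.17, adjusted p = 2.17e-08) and Ifit1 (-1.48, SE 0.40, adjusted p = 0.00608) fell furthest. In TPI against T0, 22 (81.5%) fell, beside 36.3% of all tested genes, and 2 rose, with a median of -1.42. In TPI 15 (55.6%) were lower than in NPI, beside 19.7%. At rest, 3 of the 27 (11.1%) were lower in T0, a share near the 12% of all tested genes, among them Oasl1 (-0.76, SE 0.23, adjusted p = 0.0224) and Ifit2 (-0.65, SE 0.16, adjusted p = 0.00908).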

How the data were processed

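RNA of CD4+ T cells was sequenced in 18 libraries, 3 for each of 6 groups, which were assigned from the sample titles. Per the submitters' processing notes and the study's methods, the authors depleted ribosomal RNA, aligned reads to mm9 (NCBIM37) with TopHat2 2.1.1 and counted them per Ensembl gene with HTSeq 0.9.1, and the deposited values are raw counts without normalization. How strand and overlapping genes were handled is not given in the sources used here. Each table also holds 1 row that names no gene and was left out. The notes also name DESeq2 1.18 and edgeR 3.24.

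Counts were fitted here in R 4.3.3 with edgeR 4.0.16 (TMM scaling, 1 mean per group, robust quasi-likelihood F test) for genes whose mean normalized count reached 3 in 1 or more groups. Adjusted p-values are Benjamini-Hochberg values over all 17240 tested genes, called under 0.05. They rest on the spread between libraries within the groups, estimated over all 18 libraries with information shared across genes. Normalized counts are counts divided by TMM-scaled library size. Levels of different genes were compared per kb of exon union. Alternatives were DESeq2 1.42.0, other scalings, filters, limits, covariates and left-out libraries. The procedure was tested on simulated data.

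The members and gene lists were chosen with earlier results of these data known. Named are all Schlafen genes, from each list the 2 called genes with the largest rise and fall in NAg:N0, NPI:N0 and T0:N0, marker lists, and per member the 3 genes with the highest correlation among those with a mean of at least 50. Some genes that this rule names are not reported here. Promoter sequences were taken from RefSeq. In ratios such as NAg:N0, the first group is the numerator. The authors' DNase-seq and ChIP-seq data were not analysed here.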

Additional observations from a re-analysis of the deposited data

Results flagged for a closer look

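Of the responses of the members, 2 were singled out because the same contrast gave different effects in both cell states by a test of the difference. The log2 response to PI of Slfn5 was lower in tolerized than in naive cells by a difference of -1.07 (SE 0.30, edgeR adjusted p = 0.0235), from responses of -2.98 and -1.91. That of Slfn9 was lower by -0.82 (SE 0.24, adjusted p = 0.0146), from responses of -2.03 and -1.21. Slfn9 started from a higher level in T0 than in N0 and reached 58.4 ± 2.20 normalized counts in TPI and 65.5 ± 9.96 in NPI (SD, n = 3), whereas Slfn5 started from levels that were not called different and reached 252 ± 12.5 (n = 3) in TPI and 503 to 626 in NPI. The neutrophil markers summed to 7.19 to 15.5 CPM in N0, 140 to 251 CPM in T0 and 32.8 to 56.6 CPM in TPI. In the fit with marker scores neither difference was called. These markers moved with the groups, so that fit cannot tell other cells from the groups. The part of other cells in these differences was not tested. In groups of 3 libraries no single value was screened for distance from the others.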

How the results depend on the processing

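The number of members called was recomputed under 9 alternatives and with each library left out. The study's limits on fold and level left 2 members in NAg:N0, 1 in TAg:T0, 0 in T0:N0, 0 in TAg:NAg, 1 in TPI:NPI, 3 in NPI:NAg and 1 in the PI interaction, since the fold limit is stricter by construction. DESeq2 called 1 in the Ag and 4 in the PI interaction, and its size factors in edgeR gave 4 in the PI interaction. Library totals gave 4 in TAg:NAg and 1 in the Ag interaction. Marker scores gave 0 in T0:N0, 1 in NPI:NAg, 3 in TPI:TAg and 0 in the PI interaction. The covariate for Y-linked reads gave 2 in TAg:NAg and 1 in the PI interaction, and fits with only the groups compared gave 3 in NAg:N0 and 2 in TAg:NAg. The cause of these shifts was not tested. Apart from the study's limits, the share of all tested genes called was not computed for these fits or for those with a library left out. All other counts stayed within 1.5 times.

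Without single libraries the counts ran from 2 to 5 in NAg:N0, 2 to 4 in TAg:T0, 5 to 6 in NPI:N0, 1 to 2 in T0:N0, 1 to 2 in TAg:NAg, 0 to 2 in the Ag and 0 to 3 in the PI interaction, and stayed at 4 in TPI:NPI and at 6 in TPI:T0, NPI:NAg and TPI:TAg.

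Library totals shifted the median log2 fold change of all genes by -0.82 in TPI:T0 to 0.18 in TAg:NAg. Some signs turned, among them those of 2 called changes, Slfn2 in NPI:N0 and Slfn9 in NPI:NAg. With library totals these were Slfn8 in TAg:T0 (-0.33, adjusted p = 0.0218) and T0:N0 (0.043), Slfn2 in NPI:N0 (-0.16), Slfn9 in the Ag interaction (0.025) and Slfn3 in the PI interaction (-0.13). With marker scores they were Slfn2 in T0:N0 (-0.16), Slfn1 and Slfn8 in TAg:NAg (-0.072 and -0.032), Slfn9 in NPI:NAg (0.045), and Slfn5 and Slfn9 in the Ag interaction (0.31 and 0.19). With only the groups compared they were Slfn8 in TAg:T0 (-0.037) and T0:N0 (0.010). With single libraries left out, 20 values turned, none of them called, with ranges of -0.30 to 0.077 for Slfn3 in NAg:N0, -0.054 to 0.053 for Slfn8 in TAg:T0, -0.15 to 0.24 for Slfn2 and -0.12 to 0.014 for Slfn8 in T0:N0, -0.43 to 0.040 for Slfn5 in TAg:NAg, -0.36 to 0.0051 for Slfn3 in TPI:NPI, -0.29 to 0.17 for Slfn5 and -0.16 to 0.17 for Slfn9 in the Ag interaction, and -0.12 to 0.27 for Slfn3 in the PI interaction.

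No pairing by replicate number was seen, as 0 of 45 pairs of same-numbered libraries had deviations correlated above 0.1 (-0.17 to 0.089). Libraries of unlike number were not compared, so this check cannot exclude that same-numbered libraries were prepared together. The replicate block left every count within 1.5 times its value, as 5 in NAg:N0 and 6 in NPI:N0, turned Slfn8 in TAg:T0 to -0.0025, and brought Slfn8 past the threshold in the PI interaction (-0.47, adjusted p = 0.0372).

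Slfn3 and Slfn9 were the members with the lowest normalized counts, which fell to 29.0 and 56.0 in TPI, although the PI libraries were the deepest. With 3 libraries per group, members that were not called are not shown to be unchanged.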
